A study of Mus musculus with 8 samples.

Results

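The arches and heart of 4 mouse embryos, wild-type for Pygo2 and aged 10.5 days post coitum, are described as unperturbed tissue, gene by gene and embryo by embryo. These are 4 of the 8 libraries of a study that collected pharyngeal (branchial) arches together with the looping heart from single embryos, 4 of them Pygo2 mutants and 4 wild-type littermates. The members were taken by genotype label alone, as the wild-type columns of the deposited table of raw counts, and no mutant value was used. Sources used here give neither strain nor sex, and all 4 embryos share the stage, the dissection by hand and a library kit for total RNA with ribosomal RNA removed. The 4 libraries are numbered wild-type 1, 2, 3 and 4, and values given in fours follow that order.

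The pharyngeal arches are paired outgrowths beside the embryonic pharynx. Each has a mesenchyme built mostly from cranial neural crest around a core of mesoderm, with ectoderm outside and endoderm inside, and they form much of the face, jaw, glands and great arteries. At this stage the heart tube has looped and is beating, its outflow end is lengthened by second heart field cells from the arch mesoderm, and its cavities and the arch arteries hold primitive red cells that carry embryonic haemoglobins. A dissection of arches and heart in 1 piece therefore mixes many cell types, and in such bulk RNA fewer cells of a type and less RNA per cell cannot be told apart.

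The libraries held 22329489, 23531189, 20823890 and 28175968 counts over the 23420 genes in the table. Levels are given as CPM, the counts of a gene per 1000000 counts of its library, and a gene counts as expressed at a mean of 1 CPM or more over the 4 libraries. By that rule 13623 genes, or 58.2%, were expressed, and they held 99.9% of the counts in every library. Another 4433 genes had 0 counts in all 4 libraries. A count of 3 corresponds to 0.134, 0.127, 0.144 and 0.106 CPM, which is the level below which a gene without counts cannot be told from an absent one. Spread between embryos is given as the coefficient of variation (CV), the SD of the 4 CPM values divided by their mean, in percent.

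The 4 libraries did not stand equally far from one another. Across the 13623 expressed genes, which are not independent replicates, the Pearson correlation of log2(CPM + 1) was 0.985 between wild-type 1 and 2 and 0.957 between wild-type 1 and 3. The numbers of genes more than 2-fold apart in these pairs were 282 and 934. Over 2 times the next library stood 210 genes in wild-type 1, 13 in wild-type 2, 243 in wild-type 3 and 25 in wild-type 4. Wild-type 1 carried high levels of red cell genes, wild-type 3 high levels of neural tube genes, and wild-type 4 high counts of the Rn45s and Lars2 genes, as set out below. For the red cell, neural tube and neuron lists, the globin levels per kilobase, the RNA classes and the counts of genes by CV, values are also given without the library that stands apart.

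Heart muscle genes were among the most abundant tissue genes of the dissection, and they were higher in wild-type 1 and 2 than in wild-type 3 and 4. All 26 contraction genes of the list were expressed, with summed levels of 20757, 24229, 11707 and 10325 CPM. Without Ttn, whose long transcript collects many counts, the sums were 13974, 15286, 7565 and 7011 CPM. Each of the 26 was highest in wild-type 1 or 2 (7 and 19 genes) and lowest in wild-type 3 or 4 (11 and 15 genes). Over all expressed genes 28.8, 26.2, 29.8 and 15.3% were highest in wild-type 1, 2, 3 and 4, and 21.3, 17.1, 30.7 and 30.9% were lowest there. The sums varied with a CV of 40.6%, and the median CV of the members was 36.4%, against 14.9% over all expressed genes.

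Ttn encodes titin, the giant elastic protein of the sarcomere. Its level was 6783, 8944, 4142 and 3314 CPM, the largest CPM of any sarcomere gene named here, though its long transcript collects counts in proportion to its length. Per kilobase of exon the leading members were Myl7, the atrial regulatory light chain, at 1006 CPM, Actc1, cardiac α-actin, at 951 CPM, and Myl2, the ventricular regulatory light chain, at 414 CPM. Myl7 measured 831, 824, 353 and 366 CPM, so wild-type 1 and 2 lay close together and well above the other pair. Actc1 was at 1863, 2094, 1063 and 1132 CPM, in the same pairs, and Tnnt2, cardiac troponin T, at 336, 359.9, 139.6 and 152 CPM. Nppa, the atrial natriuretic peptide gene and a mark of chamber muscle, was at 193, 186, 105 and 150.0 CPM, lowest in wild-type 3.

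Both Myl7 and Actc1 are known targets of serum response factor, which binds a sequence named the CArG box. The promoters of these 2 genes are shown because both vary between embryos with the sarcomere list, with the CArG box in capitals (in Actc1 also TATAAA). Each run is 300 bases from the RefSeq table for GRCm38.p6 and ends 50 bases after the annotated start, and both strands were searched.
Myl7 promoter (chr11:5898733-5899032, minus strand): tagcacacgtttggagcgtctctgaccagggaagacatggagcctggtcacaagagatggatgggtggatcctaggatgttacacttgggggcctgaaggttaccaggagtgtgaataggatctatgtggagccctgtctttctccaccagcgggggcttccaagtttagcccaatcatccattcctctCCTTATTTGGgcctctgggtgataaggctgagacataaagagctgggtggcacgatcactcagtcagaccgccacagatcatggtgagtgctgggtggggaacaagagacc
Actc1 promoter (chr2:114052826-114053125, minus strand): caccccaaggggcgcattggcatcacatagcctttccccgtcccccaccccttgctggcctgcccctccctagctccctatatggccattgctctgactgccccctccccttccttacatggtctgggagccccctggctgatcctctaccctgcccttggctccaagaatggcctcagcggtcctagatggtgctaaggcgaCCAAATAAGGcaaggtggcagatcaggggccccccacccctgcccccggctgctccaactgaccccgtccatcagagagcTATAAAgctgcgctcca
The box begins at position -61 in Myl7 and -47 in Actc1, counted from the annotated start, and TATAAA in Actc1 at position 34, after that start. The box was found in 5 of the 24 contraction genes with a promoter in the table (Myl3, Myl7, Actc1, Ldb3 and Myom1) and in 1.57% of all 27025 promoters. It was also found in 2 of 11 neural tube genes (Nkx2-2 and Hes5), or 18.2% against 20.8% of the contraction genes, and in 0 of 11 erythroid genes. A match is a sequence only, and binding was not measured here.

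Cardiac transcription factors followed the same division of the embryos. All 20 of the list were expressed, with sums of 945, 979, 515 and 533 CPM. Of these 19 were highest in wild-type 1 or 2 (10 and 9 genes), against 28.8 and 26.2% of all expressed genes. Gata4, a zinc-finger factor of heart muscle and endocardium, measured 70.5, 63.1, 26.4 and 29.7 CPM, and Gata6 47.7, 44.7, 16.4 and 21.01 CPM. Nkx2-5, the homeobox factor of the early heart field, was at 18.5, 20.7, 8.31 and 7.42 CPM, and Tbx20, a T-box factor of the chambers and valves, at 214, 214, 94.6 and 80.2 CPM. In each of these genes the wild-type 1 and 2 values exceeded both wild-type 3 and 4 values. Tbx5, which marks the atria and the left ventricle, differed more, at 41.2, 23.6, 6.48 and 17.3 CPM, with a CV of 65.7%. Srf, the gene of serum response factor, was at 54.9, 69.1, 31.7 and 31.7 CPM, and Hopx, which encodes a small homeodomain protein of heart muscle, at 29.5, 30.98, 16.04 and 17.1 CPM.

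Second heart field and outflow tract genes had lower sums that differed less between the embryos. Of 16 genes 15 were expressed, with sums of 353, 365, 299.8 and 290.4 CPM and a CV of 11.5%. As single genes they differed more. The median CV of the members was 27.7%, the median ratio to genes of like level was 1.80, and 3 had a CV above 50%. Nkx2-6 was at 4.88, 8.12, 1.54 and 3.30 CPM, a CV of 62.7%. Isl1, a LIM homeobox factor of heart progenitors and of some neurons, measured 37.4, 41.5, 52.1 and 35.6 CPM and was highest in wild-type 3, where neuronal genes were also high; its neuronal share was not tested. Tbx1, the arch and second heart field factor known from DiGeorge syndrome, was at 4.93, 5.91, 5.76 and 6.78 CPM, with a CV of 12.98%. Fgf10, a growth factor of the same cells, was at 7.12, 6.03, 7.30 and 7.03 CPM. Bmp4 measured 35.9, 35.4, 15.1 and 20.4 CPM and Sema3c, a guidance ligand of the outflow tract, 103, 89.3, 58.6 and 62.7 CPM. Unlike Tbx1 and Fgf10, these last genes were lower in wild-type 3 and 4 than in the other embryos.

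Arch mesenchyme patterning genes were all present and were lowest in wild-type 1. All 25 were expressed, with sums of 610.1, 944, 745 and 819.8 CPM, and 15 of them had their lowest value in wild-type 1, against 21.3% of all expressed genes, and 0 their highest there. Prrx1, a paired-type homeobox gene of mesenchyme, was at 147, 243, 233.58 and 233.99 CPM, so 3 embryos lay close together and wild-type 1 below. Twist1, a bHLH factor of cranial mesenchyme, measured 31.8, 57.3, 47.7 and 40.03 CPM. Hand2, which acts in both the ventral arches and the right ventricle, measured 47.6, 79.6, 29.3 and 31.8 CPM. It is itself counted in the arch and cardiac factor sums, which were also highest in wild-type 2. Per kilobase, Twist1 (27.1 CPM), Hand2 (20.03 CPM) and Prrx1 (19.4 CPM) led the list.

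The Dlx homeobox genes, whose nested expression gives arch mesenchyme its dorsal and ventral identities, were expressed in full (6 of 6), with sums of 37.4, 58.2, 49.2 and 66.4 CPM. All 6 were highest in wild-type 4, and 5 were lowest in wild-type 1, against 15.3 and 21.3% of all expressed genes. Dlx2, active in the whole arch, was at 6.72, 9.01, 9.89 and 9.90 CPM, and Dlx5, active ventrally, at 4.21, 8.84, 7.35 and 9.65 CPM. Dlx3 measured 10.1, 12.1, 7.92 and 13.9 CPM. The order of the embryos for Dlx genes was thus unlike that for the sarcomere genes.

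Neural crest genes had a lower sum in wild-type 4, though most members were not at their lowest there. Of 16 genes 13 were expressed, and the sums were 352, 345, 349.9 and 283 CPM. In wild-type 4 the number at their lowest was 2 of 13, Ednrb among them, and the median member stood at 0.971 of its mean, against 0.977 in wild-type 1. Sox9, a factor of migrating crest and cartilage precursors, was steady at 36.01, 34.8, 40.3 and 36.4 CPM, a CV of 6.45%. Ednrb, the endothelin B receptor, ranged more widely at 68.9, 59.2, 94.6 and 40.4 CPM and was highest in wild-type 3. Ets1, shared with endothelium, measured 126, 117, 69.7 and 78.8 CPM and Pax3 2.33, 3.61, 17.05 and 4.40 CPM. Pax3 is also a gene of the dorsal neural tube, and its value in wild-type 3 moved with the neural tube list; its part there was not tested.

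Vessel and endocardium genes were all expressed (18 of 18), with sums of 1070.1, 999, 705 and 747 CPM, highest in wild-type 1. Of the 18, 12 were highest in wild-type 1 and 5 in wild-type 2, against 28.8 and 26.2% of all expressed genes. The exception was Fli1, an ETS factor of endothelium and blood cells and the leading member per kilobase, which ran the other way at 73.8, 90.4, 99.3 and 111 CPM, lowest in wild-type 1 and highest in wild-type 4. Cdh5, the endothelial cadherin, measured 132, 114, 73.1 and 76.3 CPM, and Plvap, a gene of fenestrated endothelium, 54.4, 46.8, 24.01 and 31.7 CPM. Cushion and valve genes were likewise all expressed (15 of 15) with sums of 4817, 4490.1, 3769.7 and 3809 CPM. Vcan, a matrix proteoglycan of the cushions, was at 1718, 1693, 1887 and 1698 CPM, while fibronectin (Fn1) was at 1713, 1481, 818 and 1033 CPM. Fn1 thus differed more than 2-fold between wild-type 1 and 3, and Vcan differed little. Of 10 epicardium genes 9 were expressed. Upk3b, which marks the mesothelial cover of the heart, was at 68.7, 65.02, 15.6 and 28.7 CPM, and Aldh1a2, the retinoic acid synthesising enzyme, at 42.2, 28.6, 5.91 and 28.5 CPM, both lowest in wild-type 3.

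The epithelia gave lower sums. Pharyngeal endoderm genes were expressed in 13 of 15 cases with sums of 281, 283, 251 and 278 CPM, and the keratin pair Krt8 and Krt18 supplied much of it. Krt8 was among the steadier named genes, at 67.3, 72.3, 68.1 and 67.3 CPM, and Krt18 was at 63.7, 75.6, 67.8 and 75.8 CPM. Pax9, a factor of the pouches and of arch mesenchyme, measured 7.25, 7.18, 6.003 and 10.01 CPM. Surface ectoderm genes were expressed in 9 of 11 cases with sums of 88.5, 136, 97.1 and 108 CPM, highest in wild-type 2. Trp63, the factor that founds stratified epithelium, was at 20.3, 39.5, 26.9 and 28.7 CPM. Branchiomeric muscle progenitor genes, which mark the arch mesoderm that forms jaw and facial muscle, were expressed in 6 of 9 cases. Their sums were 53.4, 53.97, 20.7 and 55.9 CPM, with wild-type 3 far below the others. Tcf21, a bHLH factor of this mesoderm and of the epicardium, was at 26.3, 20.2, 6.43 and 16.4 CPM.

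**Figure D1:**
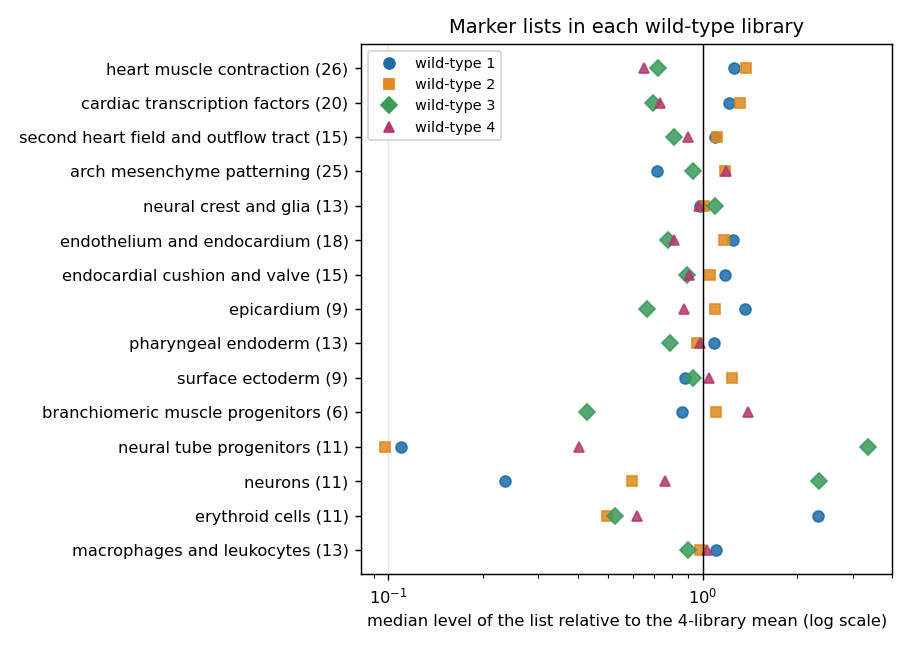
Level of 15 marker lists in each wild-type library, as the median over the expressed members (number in brackets) of the gene's CPM divided by its mean over the 4 libraries; the axis is logarithmic and the line marks 1. Wild-type 3 stands at 3.36 for neural tube progenitors and wild-type 1 at 2.33 for erythroid cells, while wild-type 1 and 2 stand above 1 and wild-type 3 and 4 below 1 for heart muscle.

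Red cell genes differed most between embryos among the abundant lists, and the excess lay in wild-type 1. The erythroid list summed to 24418, 4899.8, 6740.0 and 7265 CPM. Its 11 expressed members were all highest in wild-type 1, against 28.8% of all expressed genes. Without wild-type 1 the mean sum was 6302 CPM, against 10831 ± 9115 CPM (SD, n = 4) with it. Hbb-y, the embryonic εy β-type globin, measured 11014, 2126, 3058 and 3292 CPM. Hbb-bh1, the βh1 embryonic globin, was at 7560.1, 1482, 2509.6 and 2072 CPM, and Hba-x, the ζ embryonic α-type globin, at 4836, 1060.2, 983 and 1654 CPM. These 3 were among the 5 protein-coding genes with the highest CPM per kilobase (7698, 5556 and 2274), beside Eef1a1 and Hist2h2bb. Without wild-type 1 the values were 4464 for Hbb-y, 3297 for Hbb-bh1 and 1314 for Hba-x, and Hba-x then took rank 10. The adult-type genes Hba-a1, Hbb-b1 and Hbb-b2 were listed at 0 in all 4 libraries. Near-identical globin copies can lose reads in counting, so those zeros do not show that adult globin RNA was absent.

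Other genes of blood cells were also highest in wild-type 1. Slc4a1, the red cell anion exchanger, was at 503, 122, 69.9 and 112 CPM. A group of 18 megakaryocyte and platelet genes, chosen after the values were seen, summed to 778, 228, 184 and 195 CPM. All 18 were highest in wild-type 1, against 28.8% of all expressed genes, a number that this choice may have shaped. Tubb1, the platelet β-tubulin, was at 40.3, 5.52, 4.08 and 4.08 CPM, Itga2b, the platelet integrin αIIb, at 48.3, 7.56, 6.05 and 5.29 CPM, and Pf4, platelet factor 4, at 43.3, 5.95, 7.35 and 4.93 CPM. The macrophage and leukocyte list was low, at 44.2, 39.9, 32.99 and 40.1 CPM, and its sum had a CV of 11.8%. Of its 13 expressed members 7 were highest in wild-type 1, against 28.8% of all expressed genes. The median CV of the members was 19.8%, against 14.9% over all expressed genes. As a median ratio to genes of like level it was 0.664, so these low genes were steadier than others of their level. Lyz2, a macrophage lysozyme, was at 5.33, 5.61, 3.17 and 5.50 CPM, lowest in wild-type 3. Of 7 liver genes only Afp reached 1 CPM, at 4.03, 0.892, 0.144 and 4.58 CPM, and Apoa2 was listed at 0.

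The promoters of 2 embryonic globin genes are shown because these genes were among the most abundant and among the most variable. Capitals mark CCACCC letters, CCAAT letters and TATAAA letters, elements long studied in globin promoters, searched on both strands.
Hbb-y promoter (chr7:103853158-103853457, minus strand): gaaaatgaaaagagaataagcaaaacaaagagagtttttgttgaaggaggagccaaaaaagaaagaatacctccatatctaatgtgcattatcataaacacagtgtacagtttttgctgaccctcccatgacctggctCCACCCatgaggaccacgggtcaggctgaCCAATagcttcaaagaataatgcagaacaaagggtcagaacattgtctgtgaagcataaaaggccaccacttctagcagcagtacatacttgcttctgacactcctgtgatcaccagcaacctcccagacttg
Hba-x promoter (chr11:32276350-32276649, plus strand): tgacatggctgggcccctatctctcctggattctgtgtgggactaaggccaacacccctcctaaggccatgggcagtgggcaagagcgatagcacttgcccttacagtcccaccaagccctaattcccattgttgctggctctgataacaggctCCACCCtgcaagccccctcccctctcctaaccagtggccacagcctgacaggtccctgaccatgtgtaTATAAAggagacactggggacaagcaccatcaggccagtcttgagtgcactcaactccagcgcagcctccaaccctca
CCACCC begins at position -112 in Hbb-y and -96 in Hba-x, CCAAT at -83 in Hbb-y, and TATAAA at -28 in Hba-x. CCACCC stood in 9 of the 11 erythroid genes with a promoter in the table and in 30.9% of all promoters. CCAAT stood in 7 of 11 and in 37.9%, and TATAAA in 4 of 11 and in 14.2%. In the 11 neural tube promoters CCACCC stood in 1, CCAAT in 8 and TATAAA in 2. In the 24 contraction genes CCACCC stood in 12, CCAAT in 9 and TATAAA in 5.

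Neural tube genes were high in wild-type 3, and neuron genes were highest there. The list of neural tube progenitor genes had 11 of 13 members expressed, with sums of 188, 199, 534 and 162 CPM. All 11 were highest in wild-type 3, against 29.8% of all expressed genes. Members that reached a mean of 1 CPM only through wild-type 3, such as Sox1, Pax6 and Hes5, could only be highest there. Without wild-type 3 the mean sum was 183 CPM, against 271 ± 176 CPM (SD, n = 4) with it. Nes, an intermediate filament gene of neural precursors that other embryonic cells also express, made up much of the sum at 174, 184, 372 and 141 CPM. Sox2, a factor of neural and some endodermal progenitors, measured 9.72, 10.2, 30.3 and 6.25 CPM, and Fabp7, a gene of radial glia, 1.07, 1.83, 64.3 and 7.52 CPM. Pax6, which patterns the spinal cord and hindbrain, was at 0.448, 0.255, 19.3 and 0.923 CPM, Sox1, restricted largely to neural tissue, at 0, 0, 5.76 and 0.39 CPM, and Hes5, a target of Notch signalling in neural progenitors, at 0.0448, 0.085, 16.1 and 1.03 CPM. The last 3 were near or below 1 CPM in the other 3 embryos.

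Neurons gave a less exclusive picture. The neuron list was expressed in 11 of 12 members with sums of 77.6, 211, 716 and 251 CPM. Of these members 10 were highest in wild-type 3 and all 11 lowest in wild-type 1, against 29.8 and 21.3% of all expressed genes. The mean sum was 314 ± 278 CPM (SD, n = 4) and 179.7 CPM without wild-type 3. Tubb3, neuronal β-tubulin, was at 18.9, 53.9, 241 and 73.3 CPM, Nefl, neurofilament light chain, at 9.27, 38.3, 86.6 and 49.2 CPM, and Nefm, the medium chain, at 11.4, 42.96, 65.2 and 37.8 CPM. Wild-type 2 and 4 thus held clear levels of these genes, and wild-type 1 the least. Cranial ganglia beside the arches also express them. Miat, a long non-coding RNA known from neurons and retina, was at 8.78, 7.18, 178 and 16.1 CPM, and Pou3f2, a POU factor of neural precursors, at 1.25, 0.892, 40.00 and 1.67 CPM.

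Several of the 20 genes with the highest CV were transcription factors that mark positions along the back-to-belly axis of the neural tube. Dbx1 and Msx3 had a CV of 198% each, with 0, 0, 5.14 and 0.0355 CPM for Dbx1 and 0.0448, 0, 9.32 and 0.0355 CPM for Msx3. Olig3 was at 0, 0.085, 4.47 and 0 CPM and Nkx6-2 at 0.0896, 0.0425, 4.61 and 0.568 CPM. Robo3, the receptor of commissural axons, was at 0.403, 0.297, 23.8 and 0.461 CPM, and Rfx4, an RFX factor of the neural tube, at 0.0896, 0, 23.8 and 1.88 CPM. Of the 20 genes 18 were highest in wild-type 3, and the exceptions were Lars2 (wild-type 4) and Usp9y (wild-type 1). Many of the 18, such as Dbx1, Olig3 and Nkx6-2, reached a mean of 1 CPM only through wild-type 3. A CV this high arises when a single library holds most of the counts, so threshold and ranking shaped this number.

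The Hes5 promoter is shown because Hes5 had 1, 2, 335 and 29 counts in the 4 libraries. Capitals mark TGGGAA on either strand, the core of the site bound by Rbpj, the DNA-binding partner of Notch.
Hes5 promoter (chr4:154960673-154960972, plus strand): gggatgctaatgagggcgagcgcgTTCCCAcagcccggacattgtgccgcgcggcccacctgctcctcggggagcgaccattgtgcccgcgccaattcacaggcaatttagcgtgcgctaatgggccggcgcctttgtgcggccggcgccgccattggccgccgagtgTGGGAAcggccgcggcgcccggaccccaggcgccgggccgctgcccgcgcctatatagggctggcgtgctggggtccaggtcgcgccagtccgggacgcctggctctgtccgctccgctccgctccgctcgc
The letters begin at position -82 on the plus strand and -226 on the minus strand. They occurred in 25.5% of all promoters and in 3 of 11 neural tube genes (Sox1, Hes5 and Fabp7), against 4 of 11 erythroid and 7 of 24 contraction genes.

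The receptors and ligands of Notch differed little in sum but more as single genes. All 9 were expressed, with sums of 613, 549, 558 and 463 CPM, a CV of 11.3%. The median CV of the members was 24.5%, and the median of their ratios to the CV of genes of like level was 2.25. The ligand genes Dll1 and Dll3, chosen after their values were seen, had a CV above 50%. Dll1 was at 6.31, 6.63, 40.5 and 6.81 CPM and Dll3 at 0.582, 0.637, 8.64 and 1.31 CPM, both highest in wild-type 3. Notch2 was at 193, 200.3, 163 and 208 CPM and Jag1, a ligand of arch endoderm, mesenchyme and endothelium, at 111, 111, 80.1 and 66.5 CPM. The Hes, Hey and Id list, to which Hes5 belongs, summed to 459.8, 482, 539.6 and 492 CPM.

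**Figure D2:**
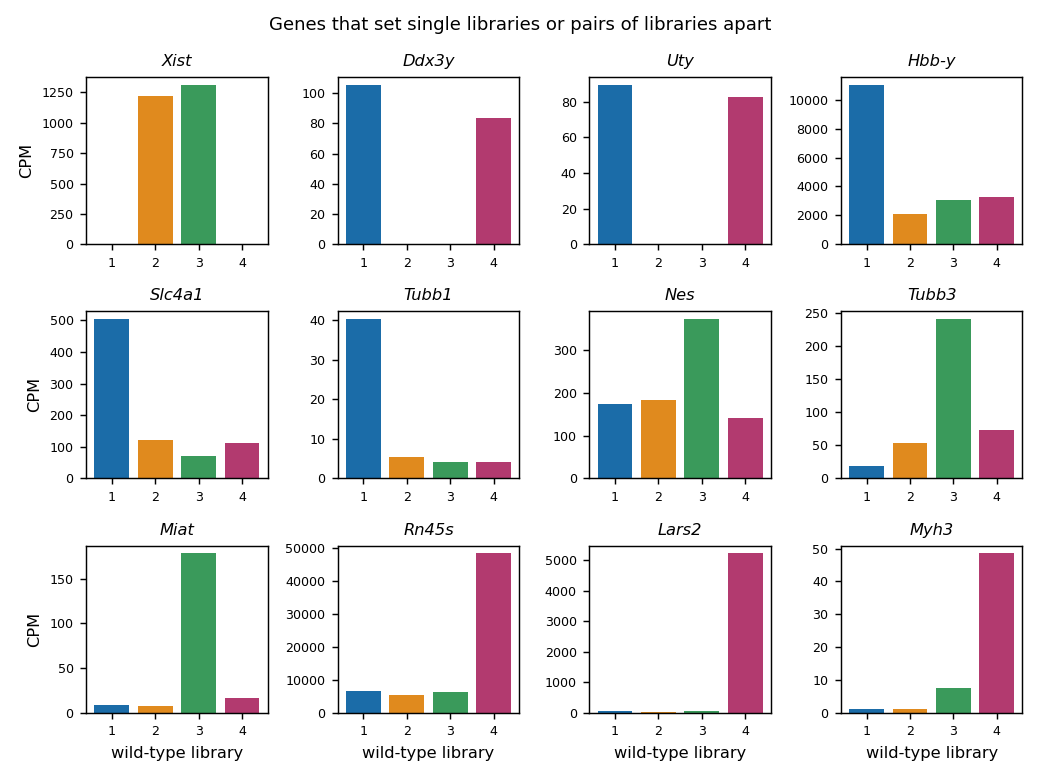
CPM of 12 genes in the 4 wild-type libraries, 1 panel per gene with its own axis from 0. Xist is high in wild-type 2 and 3, the Y genes Ddx3y and Uty in wild-type 1 and 4, Hbb-y, Slc4a1 and Tubb1 in wild-type 1, Nes, Tubb3 and Miat in wild-type 3, and Rn45s, Lars2 and Myh3 in wild-type 4.

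Sex-linked genes split the embryos into pairs. Xist, the non-coding RNA that silences 1 X chromosome in female cells, was at 3.54, 1217, 1309 and 1.63 CPM. The Y gene Ddx3y, a helicase gene, was at 105, 0.17, 0.288 and 83.8 CPM, Eif2s3y, a translation initiation factor gene, at 67.2, 0.17, 0.24 and 55.5 CPM, Kdm5d, a histone demethylase gene, at 93.6, 0.127, 0.288 and 104 CPM and Uty, related to the X-linked Kdm6a, at 89.4, 0.34, 0.24 and 82.4 CPM. Wild-type 1 and 4 thus had Y counts and little Xist, and wild-type 2 and 3 had Xist and nearly no Y counts. Usp9y, also on the Y chromosome, had 111, 0, 0 and 0 counts, so it was without counts in wild-type 4 although the other Y genes were present there. A count of 3 in wild-type 4 would be 0.106 CPM, which puts wild-type 1 at least 46.7-fold higher. Of the X-linked partners of the Y genes, Eif2s3x measured 389.9, 536, 744 and 413 CPM, higher in wild-type 2 and 3. Ddx3x measured 828, 1022, 1345 and 1069.7 CPM, highest in wild-type 3 and lowest in wild-type 1. The heart pairing (wild-type 1 with 2) and the sex pairing (wild-type 1 with 4) differed.

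By class, most counts fell on protein-coding genes. Their share was 95.6, 95.5, 95.2 and 91.8%, and the mean was 94.5% ± 1.83 (SD, n = 4). Wilson 95% intervals for counting error alone were at most 0.0101 percentage points on either side. Long non-coding RNA took 2.72, 3.02, 2.96 and 2.35%, and small nucleolar and Cajal body RNA 0.124, 0.119, 0.201 and 0.107%, highest in wild-type 3. The miRNA genes, counted as precursors by a library not made for small RNA, took 0.0121% ± 0.00207 (SD, n = 4), and pseudogenes 0.116% ± 0.0066 (SD, n = 4). The table held 0 genes of the mitochondrial genome.

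Rn45s, the 45S precursor of ribosomal RNA, stood apart in wild-type 4 among RNAs not matched to the annotation. It took 0.643, 0.523, 0.621 and 4.83% of all counts, or 6432, 5229, 6208 and 48280.4 CPM, which is 7.51 times as much in wild-type 4 as in the next library. The other 155 symbols without annotation were steady, at a mean of 0.140% ± 0.00191 (SD, n = 4). Lars2, which encodes mitochondrial leucyl-tRNA synthetase and lies at chr9:123366927-123462666 on mm10, had 896, 709, 838 and 146862 counts, or 40.1, 30.1, 40.2 and 5212 CPM. It was 129.5 times as high in wild-type 4 as in the next library, and its CV of 194% was 16.5 times that of genes of like level. Rn45s and Lars2 were thus raised in the same library, and the link between them was not tested. Without wild-type 4 the mean protein-coding share was 95.4%, and symbols without annotation took 0.736%, against 1.79% over all 4 libraries.

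Wild-type 4 also had the highest level of some skeletal muscle genes. Myh3, the embryonic skeletal myosin heavy chain, was at 0.985, 1.10, 7.64 and 48.5 CPM, and Neb, nebulin, at 10.9, 10.4, 8.64 and 22.1 CPM. Myog, the factor of muscle differentiation, measured 2.55, 3.48, 0.768 and 6.57 CPM. A group of 14 skeletal muscle genes chosen after the values were seen summed to 224, 200.4, 110.0 and 176 CPM. The sum was highest in wild-type 1, while 4 of the 9 expressed members were highest in wild-type 4, against 15.3% of all expressed genes. Arg1, arginase, was at 7.79, 8.80, 8.50 and 17.96 CPM.

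Rmrp, the RNA of the mitochondrial and nucleolar RNase MRP, led the long non-coding share at 11339, 11698, 13997 and 10087 CPM. Rpph1, the RNA of RNase P, is annotated as a ribozyme and was at 5572, 5411, 6882 and 6354 CPM. It made up most of the class of other non-coding RNA, which took 0.597, 0.581, 0.743 and 0.656% of the counts. Malat1, a nuclear RNA of speckles, was at 5451, 5134, 5118 and 4515 CPM. H19, an imprinted RNA expressed from the maternal allele, ranged over 4501, 6493, 2539.5 and 3023 CPM, highest in wild-type 2. Because Rmrp alone took 1.18% ± 0.163 (SD, n = 4) of the counts, its sequence in the GENCODE M21 annotation is given whole, on the minus strand at chr4:43492783-43493063 of GRCm38.
Rmrp RNA (281 bases): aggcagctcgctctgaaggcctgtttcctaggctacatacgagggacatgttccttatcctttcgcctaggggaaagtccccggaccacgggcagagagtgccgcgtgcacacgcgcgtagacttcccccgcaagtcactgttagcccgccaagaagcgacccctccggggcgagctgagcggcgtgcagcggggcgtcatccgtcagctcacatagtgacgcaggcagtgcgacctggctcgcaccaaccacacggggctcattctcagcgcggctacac
Polymerase III makes this RNA, which has no poly(A) tail.

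The 20 genes with the highest mean CPM also held genes of protein synthesis, the cytoskeleton and protein folding, beside Ttn, Hbb-y and Hbb-bh1 above. Eef1a1, elongation factor 1α, was at 11720.4, 11380.4, 12026 and 12972 CPM, with a CV of 5.69%. Actb, β-actin, was at 4349.7, 4569, 4875 and 5708 CPM, Tubb5, a β-tubulin of dividing cells, at 2821, 3136, 3473 and 3686 CPM, and Ptma, prothymosin α, at 2089, 2378, 2404 and 2789 CPM. Hspa8, the constitutive Hsp70, was at 3567, 3661, 4471 and 5046 CPM, and Hsp90aa1 at 1845, 1789, 3039 and 2325 CPM, with its highest value in wild-type 3. Nedd4, a ubiquitin ligase, was at 2368, 2643, 2572 and 2616 CPM and Grb10, an imprinted adaptor of growth factor receptors, at 2284, 2414, 2103 and 2421 CPM. These last were steady, with a CV of 4.88% for Nedd4 and 6.46% for Grb10.

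The 10 most abundant genes held 7.07, 6.46, 6.33 and 10.3% of the counts, and the 500 most abundant 38.9, 38.5, 40.0 and 42.9%. With protein-coding genes only, the first 10 held 4.85% on average. At 100 CPM or more stood 2243 genes, and at 1000 CPM or more 84. Replication-dependent histone mRNA, which lacks a poly(A) tail and is made in S phase, was prominent per kilobase: Hist2h2bb stood at 3246 and Hist1h1a at 1899 CPM per kilobase. Hist1h1a was at 1208, 1231, 2015 and 1173 CPM, and 50 of the 56 expressed histone genes were highest in wild-type 3, against 29.8% of all expressed genes. The histone genes summed to 13437, 14259.8, 18067 and 12789 CPM. S phase genes summed to 3090.0, 3187, 3562 and 3699 CPM, highest in wild-type 4, and mitosis genes to 5206, 5053, 5997 and 5562 CPM, highest in wild-type 3. Mki67, a mark of cycling cells, was at 1509, 1289.7, 1223 and 1254 CPM.

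**Figure D3:**
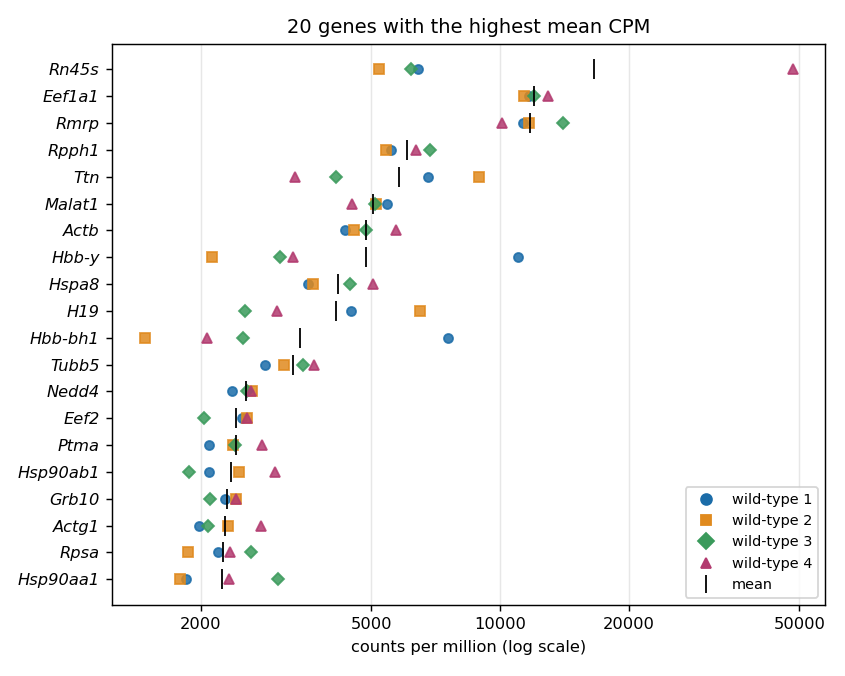
CPM of the 20 genes with the highest mean, in each wild-type library (symbols) with the mean (bar), on a logarithmic axis. Most genes keep the 4 libraries within a narrow band, while Rn45s stands apart in wild-type 4, Hbb-y and Hbb-bh1 in wild-type 1, and Ttn and H19 are higher in wild-type 1 and 2.

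Of 268 transcription factor genes in 19 families, 183 (68.3%) were expressed, 17 reached 100 CPM and 15 had 0 counts. Gata (6 of 6), Dlx (6 of 6), Irx (6 of 6) and Tcf and Lef genes (4 of 4) were expressed in full. The Hox family, which sets position along the body axis, was expressed in 13 of 39 members, and the 9 genes at 0 all belonged to groups 9 to 13 of the clusters, which mark the trunk and tail. Hoxa2, the identity gene of the arches behind the first, led per kilobase at 15.3 CPM and measured 26.2, 23.2, 31.5 and 28.1 CPM. Hoxb3 was at 19.1, 17.3, 19.4 and 16.6 CPM, with a CV of 7.52%. Hoxb1 stayed under the threshold at a mean of 0.933 CPM.

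Among the broad families, Sox genes were expressed in 16 of 19 members. Sox11, a factor of neural, mesenchymal and cushion progenitors, was at 400.5, 597, 619 and 405 CPM, the highest of the family by kilobase with Sox4, at 122.66, 170.3, 105 and 88.1 CPM. Fox genes were expressed in 27 of 44 members, led per kilobase by the ubiquitous Foxk2 at 113, 108, 91.9 and 86.6 CPM and the X-linked Foxo4 at 54.9, 60.4, 38.8 and 49.05 CPM. T-box genes were expressed in 10 of 17 members. Mga, a T-box and MAX-partner factor, was at 323, 339.6, 349 and 322 CPM and had a CV of only 3.90%, against 48.7% for Tbx20.

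Smaller families also differed in how steady they were. Tead2, a partner of Yap, was at 269, 312, 260.0 and 266 CPM, and Mef2c, a myocyte enhancer factor of heart and arch, at 85.7, 82.6, 56.8 and 63.1 CPM. Id2, an inhibitor of bHLH factors and a common target of Bmp, was at 143, 165, 188 and 174 CPM. Sp1, a general activator, was at 232, 245, 221 and 218 CPM, and Pbx2, a Hox cofactor, at 126, 144, 120.1 and 114 CPM. In the Irx family, with roles in ventricle and neural patterning, Irx1 measured 12.2, 15.1, 7.20 and 5.04 CPM, lowest in wild-type 4. Lhx8, of ventral first-arch mesenchyme, was at 3.85, 14.2, 22.3 and 19.7 CPM, and Hand1, of the left ventricle and distal arches, at 13.7, 27.2, 13.3 and 16.4 CPM. Eya genes and their sine oculis homeobox partners, which act in placodes, arch mesoderm and muscle, were expressed in 8 of 10 members, with Eya1 at 42.6, 67.4, 70.5 and 59.7 CPM. Over the 183 expressed factors the median CV was 28.1%, against 14.9% over all expressed genes. These 2 values are not matched for level, and CV was higher at low CPM. As a median ratio to genes of like level, families ran from 0.730 (Tcf and Lef) to 4.58 (Zic and Gli). These medians describe lists whose genes were picked for roles in particular cell types.

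**Figure D4:**
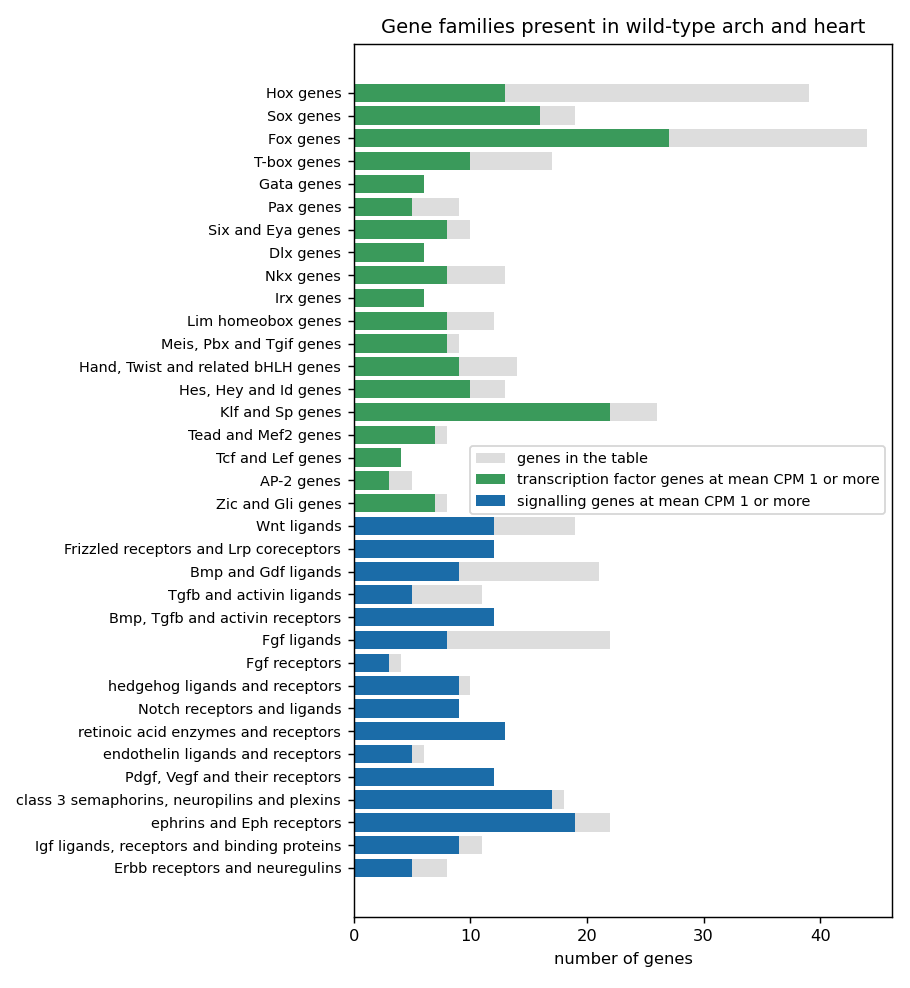
Number of genes of each family in the table (grey) and at a mean of 1 CPM or more in the 4 wild-type libraries (green for transcription factors, blue for signalling genes). Hox, Fox, Fgf ligand and Bmp ligand families have many genes below the threshold, while Gata, Dlx, Irx, Notch and Frizzled families are present in full.

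Signalling genes were expressed in 159 of 210 cases (75.7%) in 16 families, 30 of them at 100 CPM or more and 5 at 0. In the Wnt, Bmp, Tgfb and Fgf families a larger share of the receptor genes than of the ligand genes was expressed. Of the Wnt ligands 12 of 19 were expressed and of the Frizzled and Lrp receptors 12 of 12, of the Bmp and Gdf ligands 9 of 21 and of the Tgfb and activin ligands 5 of 11, against 12 of 12 of their receptors. The 9 of 21 include Bmp1, which encodes a protease. For Fgf signalling 8 of 22 ligands and 3 of 4 receptors were expressed.

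Wnt5a, a ligand of outgrowing arch mesenchyme, was at 58.8, 71.1, 40.2 and 55.8 CPM, with 7.22 CPM per kilobase. Wnt2, a ligand of the early venous pole of the heart, was at 20.8, 8.63, 4.18 and 17.5 CPM, highest in wild-type 1. Fzd2 was at 74.03, 106, 78.6 and 65.02 CPM and Fzd3, also a receptor of neurons, at 189.7, 227, 363 and 187 CPM, highest in wild-type 3. The Tcf and Lef factors that act with β-catenin were low, with Lef1 at 25.8, 26.6, 18.3 and 23.9 CPM and Tcf7 at 8.51, 8.41, 5.71 and 6.96 CPM.

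Bmp and Tgfb ligands that shape cushions and outflow were lower in wild-type 3 and 4. Bmp2, which starts cushion formation, was at 10.6, 7.52, 5.95 and 4.44 CPM, and Tgfb2, its partner in that step, at 66.8, 69.9, 25.02 and 33.1 CPM. Their receptors Bmpr1a and Tgfbr1 were at 258, 311, 298 and 275 CPM and 290.2, 332, 416 and 331 CPM, and Tgfbr1 was highest in wild-type 3. Bmp1, a protease that matures collagen and not a Bmp-type ligand, was at 78.2, 78.8, 51.9 and 58.7 CPM. Fgf8, of pharyngeal ectoderm and endoderm, was at 0.851, 3.10, 3.75 and 2.77 CPM, lowest in wild-type 1, while Fgfr1 and Fgfr2 were at 81.5, 92.5, 65.3 and 82.7 CPM and 138, 141, 127 and 122 CPM.

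Endothelin signalling sets ventral arch identity through Ednra in crest cells. Its ligand gene Edn1 was at 7.75, 9.35, 4.18 and 5.96 CPM, Ednra at 42.2, 45.5, 33.7 and 51.1 CPM, and Ece1, the enzyme that activates the ligand, at 162, 159, 79.00 and 79.2 CPM. Ece1 separated wild-type 1 and 2 from 3 and 4, and Ednra did not. In the hedgehog family Smo, the signal transducer, was at 126, 141, 106 and 88.1 CPM, Gas1, a coreceptor, at 46.7, 74.03, 55.5 and 59.2 CPM, and the target factor Gli1 at 36.5, 35.1, 21.6 and 31.8 CPM. Gli3, its repressor relative, was steadier at 128, 148, 135 and 122.52 CPM. Pdgfra, the growth factor receptor of crest mesenchyme, was at 369.6, 378, 314 and 426 CPM, and Erbb2, a coreceptor for neuregulin in the heart, at 72.2, 72.03, 40.6 and 53.6 CPM. Nrp1, a coreceptor of semaphorins and Vegf, was at 205, 217, 135 and 169 CPM and Plxnb2, a plexin, at 230.1, 251, 187 and 216 CPM.

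Of the 16 families, Igf signalling had the largest summed CPM, at 4849, 4918, 2719 and 3168 CPM. Igf2, the imprinted growth factor of the embryo, was at 1376, 1376, 808 and 966 CPM, and Igf2r, which clears it, at 1713, 1769, 841 and 858 CPM. Both were lower in wild-type 3 and 4, as was H19, the imprinted neighbour of Igf2. Retinoic acid enzymes and receptors were all expressed (13 of 13), with Rxra at 60.3, 71.1, 49.9 and 43.9 CPM.

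Over all 13623 expressed genes the median CV between embryos was 14.9%, with a 5th to 95th percentile range of 4.67 to 52.4%, while counting error alone would give a median of 3.98%. The common biological coefficient of variation of edgeR was 24.3%, and between 20.5 and 26.5% when 1 embryo was left out. At a mean of 100 CPM or more the median CV was 11.2%, and at 1 to 10 CPM it was 25.2%. A CV above 50% was found for 770 genes (5.65%). Of these 351 were highest in wild-type 1, 73 in wild-type 2, 296 in wild-type 3 and 50 in wild-type 4. These are 45.6, 9.48, 38.4 and 6.49%, against 28.8, 26.2, 29.8 and 15.3% of all expressed genes. Without wild-type 3 the number was 470, and without wild-type 1 it was 662.

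Wild-type 2 had few genes of its own, and 6 were named from the 13 that stood over 2 times the next library. Atp10d, annotated as a pseudogene here, was at 11.5, 36.7, 11.5 and 12.2 CPM and Slc15a2, a peptide transporter, at 7.57, 25.5, 2.64 and 4.51 CPM. Gdf6, a ligand of the Bmp type, was at 7.84, 16.6, 6.87 and 7.81 CPM, Six2, a factor of outflow and kidney progenitors, at 4.48, 9.48, 3.60 and 4.47 CPM, Tlx1, of spleen and arch derivatives, at 1.34, 8.16, 4.03 and 3.94 CPM, and Pygo1, the paralog of Pygo2, at 3.001, 9.60, 3.46 and 2.45 CPM. By that choice the other 3 libraries stayed at less than 0.5 of the value in wild-type 2 in all 6.

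**Figure D5:**
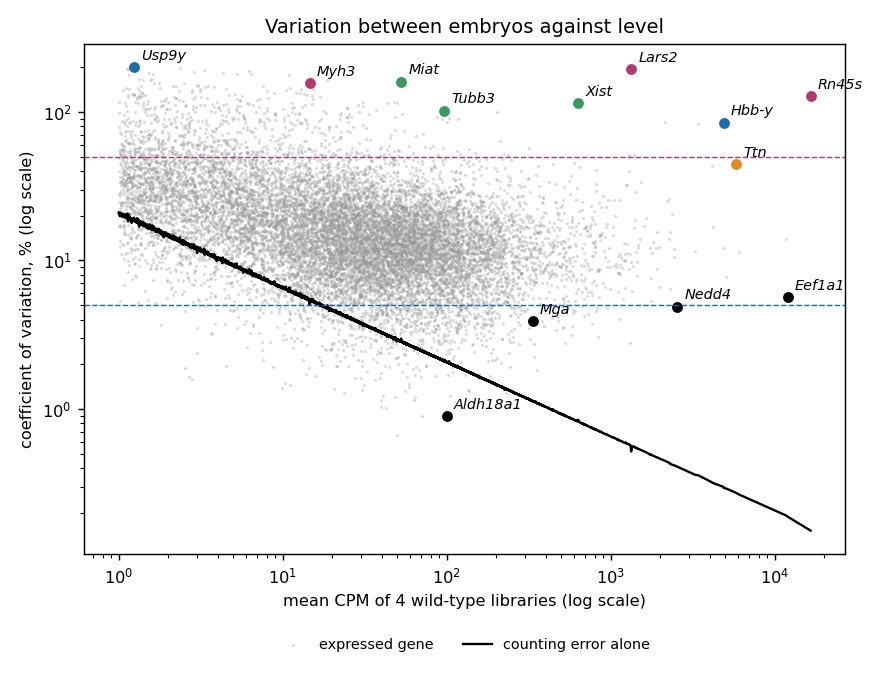
CV of CPM over the 4 wild-type libraries against mean CPM for 13623 expressed genes, both axes logarithmic, with the CV that counting error alone gives (black line) and dashed lines at 50 and 5%. Named points are coloured by their highest library (blue 1, orange 2, green 3, purple 4) or black for steady genes; most genes lie above the counting line, and Aldh18a1 lies below it.

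At the other end 809 genes (5.94%) had a CV under 5%. The number was 1236 without wild-type 1, 1925 without wild-type 3 and 1467 without wild-type 4, each a CV over 3 values. Under other scalings the number was 728 (TMM), 714 (DESeq2) and 758 (totals without Rn45s). Of the 15 with the lowest CV, all lay below the CV that counting error alone gives. Their order among themselves thus has no meaning. These CVs are stated for CPM on total counts only, and the TMM factors of the libraries were 1.03, 1.03, 0.987 and 0.957. 1110057K04Rik measured 49.4, 49.98, 49.99 and 49.5 CPM (CV 0.67%, counting 2.93%), and Aldh18a1, an enzyme of proline synthesis, 100.5, 99.1, 99.02 and 101 CPM (CV 0.901%, counting 2.07%). Pi4kb, a Golgi lipid kinase, was at 71.3, 70.6, 70.6 and 69.7 CPM, Abcc1, a drug and leukotriene exporter, at 41.7, 42.7, 42.4 and 42.4 CPM, and Sin3b, a corepressor, at 104, 106, 104 and 104 CPM. Angpt1, the ligand of the endothelial receptor Tek and a cardiac growth factor, was at 64.6, 64.3, 64.6 and 63.00 CPM, steady although the endothelial list was not. Ncapg2, of the condensin II complex, was at 139, 135, 135 and 136 CPM. A total of 661 genes fell below their counting CV.

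Gene groups chosen after the values were seen differed in CV. The median CV was 8.62% for complex I subunits, 9.68% for mitochondrial ribosomal proteins, 10.3% for cytosolic ribosomal proteins and 13.3% for 314 expressed genes named Zfp. It was 24.6% for collagens and 28.2% for small nucleolar RNAs, against 14.9% over all expressed genes. As a median ratio to genes of like level the CV was 0.730 for complex I, 0.780 for mitochondrial and 0.870 for cytosolic ribosomal proteins, 0.835 for the Zfp genes and 1.70 for collagens. Small nucleolar RNAs stood at 1.02, close to genes of like level. Summed levels were 2882, 2863, 2912 and 2746 CPM for complex I and 60300.4, 57576, 69576 and 65975 CPM for cytosolic ribosomal proteins. Common reference genes had a median CV of 12.1%: Gapdh, of glycolysis, was at 1672, 1817, 1493 and 1986 CPM and Rplp0, of the ribosome, at 1916, 1677, 2251 and 2057 CPM.

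Genes that report on handling had median CVs above the 14.9% of all expressed genes. These were 29.3% for immediate early, 19.3% for heat shock and 22.8% for hypoxia and glycolysis genes. As a median ratio to genes of like level they were 1.17, 1.43 and 1.94. Immediate early genes summed to 120.5, 118, 73.9 and 89.7 CPM, heat shock genes to 6765, 6839, 9113 and 8975 CPM and genes of hypoxia and glycolysis to 6476, 6528, 5237 and 5729 CPM. Jun, an early response factor, was at 56.2, 54.8, 30.01 and 42.2 CPM. Heat shock sums were higher in wild-type 3 and 4, and the other sums lower there. In heart and epicardial genes the embryos split the same way, and the part of handling in that split was not tested.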

How the data were processed

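RNA of pharyngeal arches and looping heart was sequenced from single embryos at 10.5 days post coitum, with 300 ng of total RNA per library per the labels. The submitters' processing notes name HTSeq 0.6.1, TopHat2 2.0.11, edgeR 3.14 and the mm10 build. The authors deposited raw counts per gene symbol, and those of the 4 wild-type libraries were used. Sources used here state neither the annotation nor the strand setting of the counting, so overlapping genes and near-identical copies are uncertain. The other deposited tables were not used here.

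CPM were computed on the total count of each library with Python 3.11.15 (pandas 2.3.3). RNA classes, positions and exon lengths came from GENCODE M21 (GRCm38): 21777 symbols matched directly, 1276 through an older symbol, 211 in RefSeq only and 156 not at all. The common biological coefficient of variation was estimated with edgeR 4.0.16 in R 4.3.3 (TMM scaling, intercept only) on genes at a mean of 1 CPM or more. The counting CV assumes Poisson error. The relative CV divides by the median of the 200 genes nearest in mean CPM. A single group has no contrast, so no test between groups was made and no p-value is given. Dixon's critical value was used only to flag single libraries. The CV and dispersion steps were tested on simulated data. PCR reads without molecular identifiers are not independent molecules, so intervals and limits cover counting error only. Separate embryos were sampled per the design text, so the spread is between embryos.

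Genes named are the 20 with the highest mean CPM, the 10 with the highest CPM per kilobase, those with the highest and lowest CV or relative CV, the leading members of each list, sex-linked genes, up to 6 genes per library over 2 times the next library, and 18 genes chosen after their values were seen. Part of the genes these criteria give are described, and 4 are not reported here. The members, the 59 lists and the 10 gene groups were chosen with earlier results of these data known.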

Additional observations from a re-analysis of the deposited data

Results flagged for a closer look

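In each wild-type library single values stood far from the other 3, measured as the gap to the nearest other library over the whole range of the 4. A gap above Dixon's 95% critical value for 4 samples was taken as far, which chance alone gives in about 1 of 20 groups of 4. Of the genes named, 53 met this limit, 31 of them for wild-type 3, 10 for wild-type 1, 6 for wild-type 2 and 6 for wild-type 4. Many of these genes were named because they vary, so the number is no measure of how common such gaps are. All values below are the gap over the range, which does not give the size of the difference.

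Wild-type 1 stood above the other libraries for Hbb-bh1 (0.831), Hbb-y (0.869), Itga2b (0.947), Pf4 (0.937), Slc4a1 (0.879), Thbs1 (0.85), Tubb1 (0.96) and Usp9y (1.0).

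Wild-type 1 stood below the other libraries for Parn (0.877) and Prrx1 (0.906). Parn had a CV of 1.14%, below its counting CV of 3.28%, so its gap lies within counting error.

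Wild-type 2 stood above the other libraries for Atp10d (0.974), Esrp1 (0.86), Gdf6 (0.9), Krt8 (0.834), Pygo1 (0.859) and Six2 (0.851). The difference in Krt8 was small, with a CV of 3.49%.

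Wild-type 3 stood above the other libraries for 2610100L16Rik (0.961), AI854517 (0.868), C130071C03Rik (0.978), Dbx1 (0.993), Dll1 (0.985), Dll3 (0.909), Fabp7 (0.898), Fam181a (0.981), Glra1 (0.94), Gpr98 (0.961) and Hes5 (0.939). It also stood above them for Hist1h1a (0.932), Miat (0.948), Msx3 (0.995), Myt1 (0.88), Nkx6-2 (0.885), Olig3 (0.981), Pax3 (0.859), Pax6 (0.965) and Pou3f2 (0.98). The list goes on with Rfx4 (0.921), Robo3 (0.993), Scrt2 (0.941), Sox1 (0.932), Sox2 (0.836), Sp8 (0.938), Tubb2b (0.86) and Vcan (0.869). Vcan differed little in level, as given above.

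Wild-type 3 stood below the other libraries for Eef2 (0.862), Lyz2 (0.885) and Tnc (0.878).

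Wild-type 4 stood above the other libraries for Arg1 (0.901), Gm14403 (0.899), Lars2 (0.998), Myh3 (0.86), Neb (0.834) and Rn45s (0.972).

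Among gene lists, 5 of 59 had a summed level with such a gap. Neural tube progenitors were high in wild-type 3 (0.901) and erythroid cells high in wild-type 1 (0.879). The pharyngeal endoderm list (0.851) and the branchiomeric muscle progenitor list (0.928) were low in wild-type 3, and the neural crest list was low in wild-type 4 (0.905), though only 2 of its 13 expressed members were at their lowest there.

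Of the RNA classes, the protein-coding share was low in wild-type 4 (0.884) and the share of symbols without annotation, which is mostly Rn45s, was high there (0.971). The snRNA share, which rests on few counts, was high in wild-type 3 (0.929).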

How the results depend on the processing

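No paired analysis was possible because a single group of embryos is described and no comparison between groups was made. The number of expressed genes was 13570 to 13674 when 1 embryo was left out, 13618 with TMM-scaled and 13619 with DESeq2-scaled libraries (DESeq2 1.42.0), 14590 at a limit of 0.5 CPM, 12616 at a limit of 2 CPM and 12917 when every library had to reach 1 CPM. The number of genes with a CV above 50% was 470 to 1000 with 1 embryo left out and 202 among genes at 10 CPM or more. The number with a CV under 5% was 1190 to 1925 with 1 embryo left out, when the CV rests on 3 values, and 1709 after the counting variance was subtracted. With TMM-scaled libraries that number was 728, and with DESeq2-scaled libraries 714. With protein-coding genes only, the 10, 50 and 500 most abundant genes held 4.85, 11.9 and 37.8% of the counts. Totals without Rn45s, tried after seeing the data, gave 13640 expressed genes and 765 genes with a CV above 50%, and the common biological coefficient of variation stayed at 24.3%. Summed marker levels under the other scalings and class shares without Rn45s moved by less than 1 SD. For symbols without annotation that still was a fall from 1.79 to 0.143%, since the SD of 2.12 percentage points comes mostly from Rn45s. Of 230 named genes with counts, 67 changed their CV by more than 1.5 times without wild-type 3, against 25 without wild-type 1, 30 without wild-type 2 and 23 without wild-type 4. With TMM scaling 24 did so, with DESeq2 scaling 23 and with totals without Rn45s 14. Depth limits genes below 10 CPM most: their median counting CV was 10.8%. With 4 embryos of which 3 stand apart in some gene group, the spread given is that of these embryos.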

Other observations

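Some genes stood lower in 1 library than in the others. Crabp1, a binding protein of retinoic acid in neural crest and hindbrain, was at 50.1, 103, 227 and 167 CPM, lowest in wild-type 1. Tnc, tenascin C, a matrix protein of cushions and mesenchyme, was at 201, 202, 57.7 and 184 CPM, and Myrf, a membrane-bound transcription factor, at 73.2, 48.2, 21.1 and 43.8 CPM, both lowest in wild-type 3. Rps16, a ribosomal protein gene, was at 230.0, 206, 88.6 and 374 CPM and so left the narrow range of its group, although copies of ribosomal protein genes can lose or share reads. Rprl3, an RNase P RNA-like gene, was at 358, 361, 497 and 177 CPM, lowest in wild-type 4.

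Among genes with counts above those of the other libraries in wild-type 1, Thbs1, thrombospondin 1, which platelets and endothelium make, was at 414, 165, 121 and 148 CPM. In wild-type 3, Gpr98, a large adhesion receptor of neural precursors, was at 60.1, 52.6, 243 and 57.5 CPM, Tubb2b, a neuronal tubulin, at 115, 141, 298 and 141 CPM, and Scarna10, a Cajal body RNA, at 99.5, 88.1, 208 and 67.3 CPM. Scarna6 measured 59.6, 59.7, 119.5 and 45.4 CPM. Gm14403, a predicted gene, was highest in wild-type 4 at 13.2, 9.94, 11.8 and 41.8 CPM.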
